A study of Rattus norvegicus with 14 samples.

Results

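The 8 microRNAs (miRNAs) described here are the guide arms of a pair of sister gene clusters, miR-17-92 and miR-106a-363, as they were measured in the serum of newborn rats. They were chosen by name: miR-17-5p, miR-18a-5p, miR-19a-3p, miR-19b-3p, miR-20a-5p, miR-92a-3p, miR-20b-5p and miR-363-3p. All 8 were among the 375 miRNAs of the count table, and all 8 had counts in every library. Serum was taken on postnatal day 8 from 1 female Long Evans pup per litter. In the Control group (n = 8, euthyroid pups) the dams drank water with 0 ppm propylthiouracil (PTU), a drug that blocks thyroid hormone synthesis. In the PTU group (n = 6, hypothyroid pups) they drank 3 ppm during pregnancy or lactation. All pups were of the same outbred strain, with no transgene or mutant allele named. The serum RNA was cell-free, so an amount of a miRNA cannot be assigned to the cells that released it.

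A miRNA cluster is transcribed as a single long RNA from which several hairpins are cut, and each hairpin yields a guide arm, which is loaded into Argonaute to repress messenger RNAs, and a passenger arm, which is mostly degraded. Target choice rests largely on the seed, bases 2 to 8 of the guide arm. miR-17-92, also known as oncomiR-1 from work on human and mouse lymphoma, is activated by MYC, and in mice its loss impairs lung, heart and B cell development. miR-106a-363 arose from it by duplication, and members of both clusters are carried in blood cells and in serum.

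In the RefSeq annotation of the rat assembly GRCr8, miR-17-92 is a run of 6 neighbouring miRNA genes on chromosome 15, in the order Mir17, Mir18a, Mir19a, Mir20a, Mir19b1 and Mir92a1. The sister cluster is a run of 5 genes on chromosome X, Mir363, Mir92a2, Mir19b2, Mir20b and Mir106a. The mature miR-17-5p, miR-19b-3p and miR-92a-3p are listed for a gene in each run, so their counts cannot be divided between the loci. miR-18a-5p, miR-19a-3p and miR-20a-5p come from chromosome 15 alone, and miR-20b-5p and miR-363-3p from chromosome X alone.

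The RefSeq mature sequences of the 8 arms are given 5′ to 3′ with the seed in capitals, because the seeds sort them into 4 families and because the close pairs bear on how reads are assigned:
miR-17-5p: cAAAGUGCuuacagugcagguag
miR-20a-5p: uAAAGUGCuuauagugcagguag
miR-20b-5p: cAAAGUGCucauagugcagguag
miR-18a-5p: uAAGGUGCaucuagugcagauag
miR-19a-3p: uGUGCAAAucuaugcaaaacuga
miR-19b-3p: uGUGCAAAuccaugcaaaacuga
miR-92a-3p: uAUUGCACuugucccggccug
miR-363-3p: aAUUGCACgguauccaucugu

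The seed AAAGUGC is shared by miR-17-5p, miR-20a-5p and miR-20b-5p, GUGCAAA by miR-19a-3p and miR-19b-3p, and AUUGCAC by miR-92a-3p and miR-363-3p. miR-18a-5p stands alone with AAGGUGC, which no other of the 693 rat mature entries in the RefSeq table holds, whereas AAAGUGC occurs in 5 of them (0.722%) and AUUGCAC in 5. Outside the seed the families differ in closeness. miR-19a-3p and miR-19b-3p differ at a single position, U11C, counted from 1 at the 5′ end with the base of the first-named arm first. miR-17-5p and miR-20a-5p differ at 2 positions, C1U and C12U, and miR-20a-5p and miR-20b-5p at 2, U1C and U10C. miR-92a-3p and miR-363-3p differ at 11 of 21 positions, all of them outside the seed. No source used here says how reads that match several of these arms were counted, so counts of arms that differ at 1 or 2 positions are uncertain to that extent.

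The libraries held 452961 to 2119979 counts each, and 3 counts corresponded to 1.44 to 6.38 CPM, counts scaled to a library total of 1000000. PTU replicate 6 stood apart: it was the highest library for 66 and the lowest for 65 of the 357 tested miRNAs, against 6 to 49 and 8 to 51 in the other libraries. Its median Pearson correlation with the other libraries was 0.956, against 0.970 to 0.984 for the rest. Results that rest on this library are given with and without it. Serum has no miRNA that defines it; sets of miRNAs known from red cells, leukocytes, platelets and endothelium, and striated muscle were all detected, and the muscle set alone made up 39.8 to 53.1% of the counts of a library.

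The 8 guide arms spanned a wide range of levels. Together they made up 0.753% ± 0.119 (SD, n = 8) of the counts in Control libraries and 0.992% ± 0.276 (SD, n = 6) in PTU libraries. miR-92a-3p was the most abundant, with a mean of 6175 CPM over the 14 libraries (rank 23 of 357 by level), and it was above the next member in 14 of 14 libraries. miR-19b-3p followed with 970 CPM and miR-20a-5p with 768 CPM, and the former was above the latter in 11 of 14 libraries. miR-17-5p (182 CPM) and miR-19a-3p (180 CPM) could not be ordered, since the first exceeded the second in 6 of 14 libraries. miR-18a-5p had 118 CPM, below miR-19a-3p in 11 of 14 libraries. The chromosome X arms came last, miR-363-3p with 50.3 CPM and miR-20b-5p with 24.7 CPM. CPM counts molecules of near-equal length, but ligation and amplification differ between sequences, so this order is one of recovered reads.

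miR-92a-3p alone supplied 70.7% ± 7.53 of the members' counts in Control and 74.4% ± 7.06 in PTU libraries. miR-19b-3p supplied 13.1% ± 4.71 and 10.1% ± 3.80, and miR-20a-5p 9.31% ± 1.68 and 9.12% ± 2.17. Arms found at both loci made up 86.1% ± 2.74 of the members' counts in Control libraries, the chromosome 15 arms 13.1% ± 2.67 and the chromosome X arms 0.754% ± 0.167. In PTU libraries the chromosome X arms took 0.517 to 2.27% of the members' counts, the highest share being that of PTU replicate 6.

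**Figure D1:**
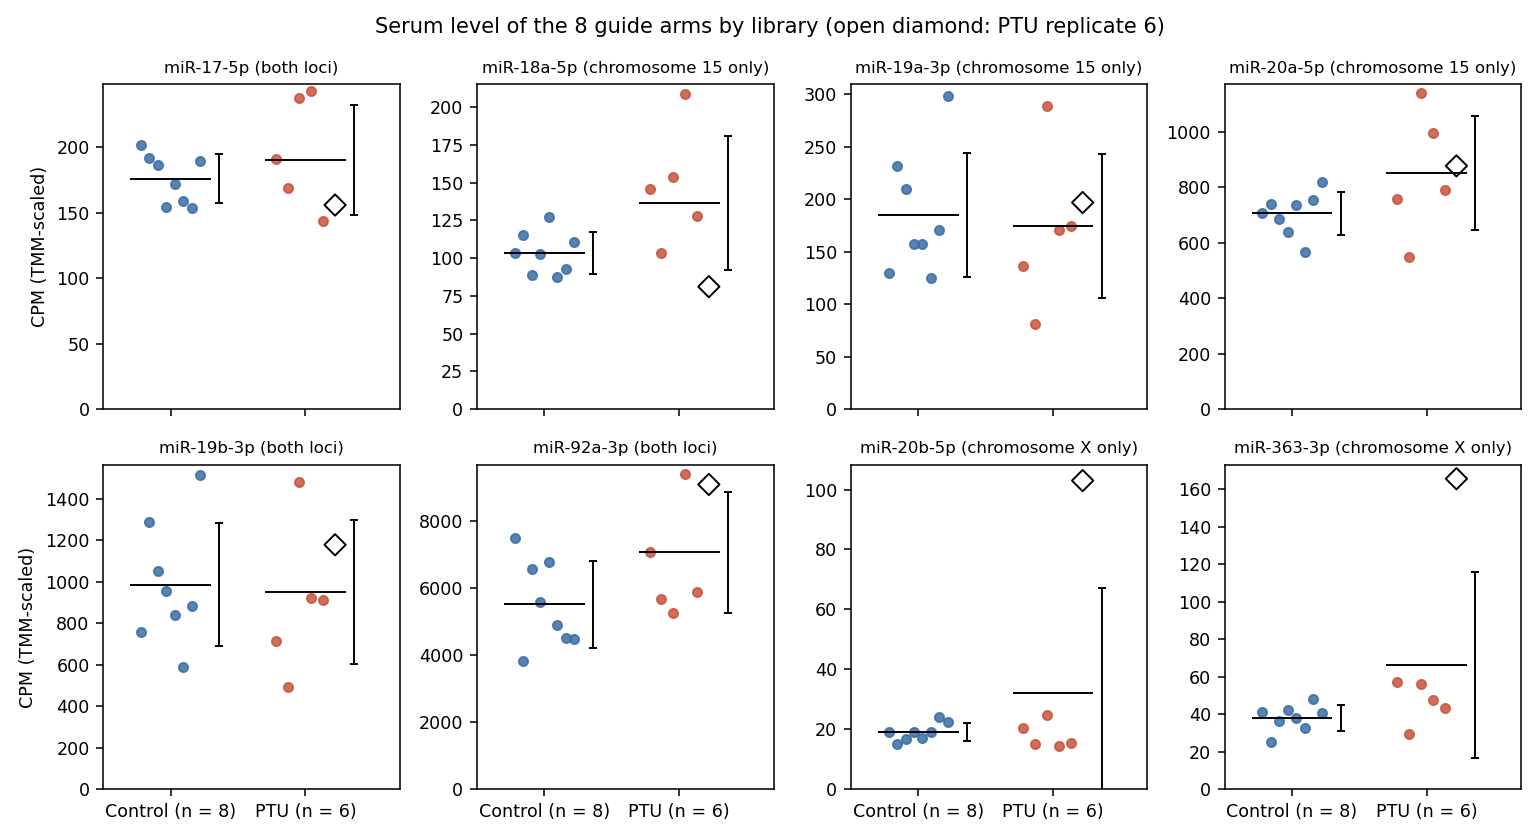
Level of each of the 8 guide arms in CPM (linear axis) in every Control and PTU library; horizontal lines are group means, error bars are 1 SD and the open diamond marks PTU replicate 6. The bar of miR-20b-5p in PTU is cut at 0; its diamond, at 103 CPM, and that of miR-363-3p, at 166 CPM, lie far above all other libraries, while that of miR-18a-5p, at 81.1 CPM, is the lowest of 14.

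No guide arm changed between hypothyroid and euthyroid pups at a false discovery rate of 0.05, and 6 of the 8 had a higher fitted level in PTU. The largest differences were those of miR-363-3p and miR-20b-5p, followed by miR-18a-5p and miR-92a-3p. For miR-20b-5p the difference rested on a single PTU pup, replicate 6, and leaving it out took the log2 value from 0.78 to -0.08. For miR-363-3p it rested on that pup only in part, with 0.82 reduced to 0.28. miR-19a-3p and miR-19b-3p had near-equal levels in both groups. The test was edgeR's quasi-likelihood test over all 357 tested miRNAs with Benjamini-Hochberg adjustment. It called 0 of the 8 members, and 0% of all tested miRNAs. limma-voom and edgeR's likelihood ratio test also called 0 of the 8, and DESeq2 called 0 of the 7 for which it gave a p, miR-20b-5p being the exception. At an unadjusted p under 0.05, 2 members were higher in PTU, miR-363-3p and miR-18a-5p, against 7.84% of all tested miRNAs; DESeq2 placed 2, limma-voom 0 and the likelihood ratio test 1 of the members under that value. A positive log2 fold change was found for 6 of 8 members and for 57.7% of all tested miRNAs, and the median was 0.31 for the members and 0.03 for all. For none of the 8 were the groups free of overlap, which held for 0.56% of the tested miRNAs. Without PTU replicate 6, 5 members had a positive log2 fold change against 51% of all tested, 1 was at an unadjusted p under 0.05 and higher against 6.13%, 0 passed the adjusted threshold against 0%, and the members' median was 0.19.

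**Figure D2:**
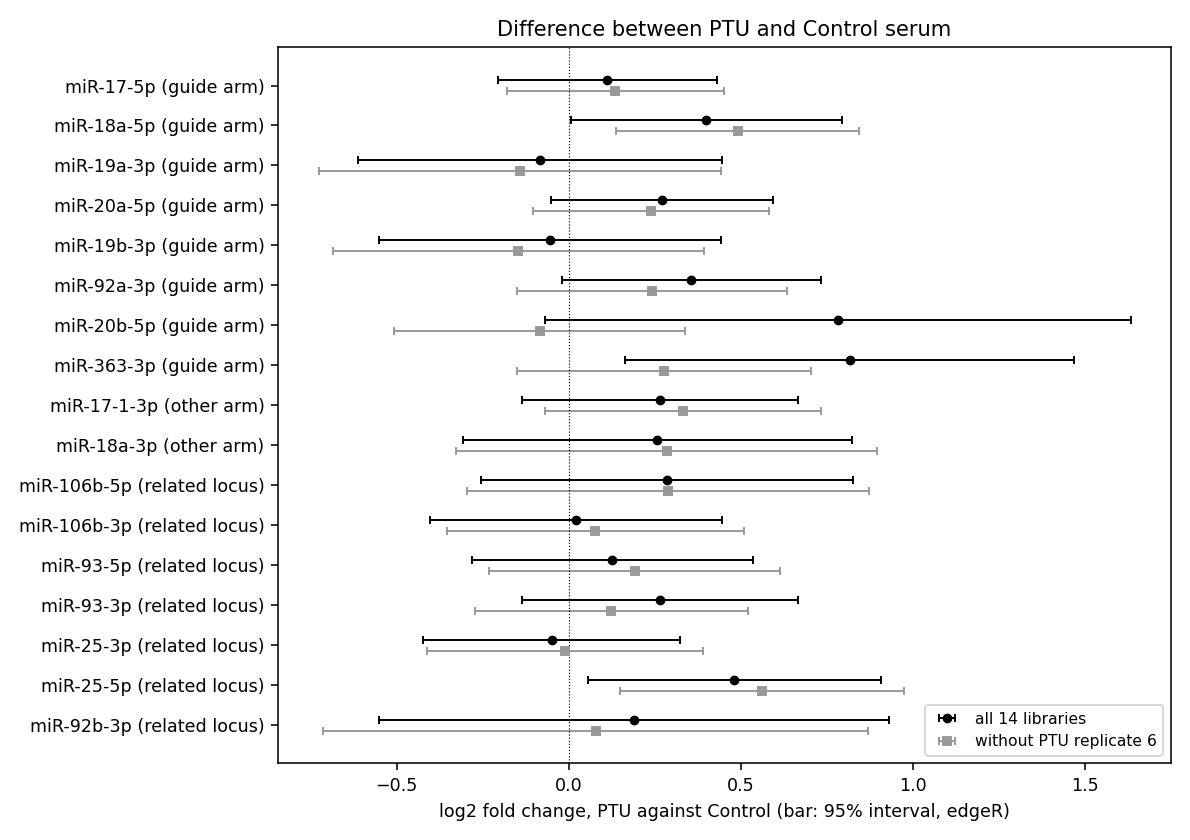
Log2 fold change of PTU against Control from edgeR for each guide arm, with its 95% confidence interval, from all 14 libraries and without PTU replicate 6. Without that library miR-20b-5p moves from 0.78 to -0.08 and miR-363-3p from 0.82 to 0.28, while miR-18a-5p moves from 0.40 to 0.49.

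The seed family of miR-17-5p, miR-20a-5p and miR-20b-5p is known to repress cell cycle inhibitors such as CDKN1A. miR-17-5p ranged from 154 through a median of 179 to 202 CPM in Control and from 144 through 180 to 243 CPM in PTU libraries. The highest and the lowest of the 14 values were both in the PTU group, and the medians nearly coincided. On the log2 scale PTU exceeded Control by 0.11 with a standard error (SE, given after ± for all fold changes) of 0.15, and edgeR's adjusted p was 0.783. The difference was 0.037, 0.055 and 0.19 when PTU replicates 3, 4 and 5 were left out in turn, and 0.0059 with upper-quartile factors. miR-17-5p was also the steadiest member, with a highest value 1.69 times the lowest.

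miR-20a-5p ranged from 566 through 721 to 820 CPM in Control and from 549 through 833 to 1141 CPM in PTU libraries. PTU replicates 3, 4 and 6 were above every Control library, and PTU replicate 2 was below them all. Group means were 706 CPM ± 77.4 (SD, n = 8) and 851 CPM ± 205 (SD, n = 6), giving a log2 fold change of 0.27 ± 0.15 (adjusted p = 0.451 by edgeR). It was 0.18 without PTU replicate 3 and 0.16 with upper-quartile factors. Its 95% confidence interval ran from -0.05 to 0.59.

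miR-20b-5p, the chromosome X arm of this family and the scarcest member, ranged from 15.1 through 19.0 to 24.1 CPM in Control libraries. In PTU libraries it ranged from 14.3 through 17.9 to 103 CPM. The highest value was PTU replicate 6, where 146 counts were recorded (95% Poisson interval 87.0 to 121 CPM, counting error only), and the next PTU library had 24.9 CPM (18.6 to 32.7). The PTU mean was 32.2 CPM ± 34.9 (SD, n = 6) with that library and 18.0 CPM ± 4.49 (SD, n = 5) without it, beside 19.1 CPM ± 2.98 (SD, n = 8) in Control. The log2 fold change of 0.78 ± 0.40 had an adjusted p of 0.422 by edgeR, and without PTU replicate 6 the value was -0.08 with an adjusted p of 0.999.

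miR-18a-5p, which in rat brain is known to repress the glucocorticoid receptor, comes from chromosome 15 alone. It ranged from 87.5 through 103 to 128 CPM in Control and from 81.1 through 137 to 209 CPM in PTU libraries. In 4 of 6 PTU libraries it was above every Control library, and in PTU replicate 6 it was below them all. For PTU replicate 5 this was a near tie, 127.8 CPM against 127.5 CPM in Control replicate 5. Group means were 104 CPM ± 14.0 (SD, n = 8) and 137 CPM ± 44.4 (SD, n = 6). The log2 fold change was 0.40 ± 0.19, with an unadjusted p of 0.0469 and an adjusted p of 0.364 by edgeR. Leaving out PTU replicate 6 raised it to 0.49 ± 0.17, with an adjusted p of 0.189, and leaving out PTU replicate 4, its highest library, lowered it to 0.26, with an adjusted p of 0.494. The difference did not pass the threshold in any of these fits.

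miR-19a-3p and miR-19b-3p are known from mouse lymphoma as the arms that carry much of the cluster's oncogenic activity. miR-19a-3p ranged from 125 through 164 to 298 CPM in Control and from 80.9 through 172 to 288 CPM in PTU libraries. miR-19b-3p ranged from 590 through 920 to 1512 CPM in Control and from 493 through 917 to 1479 CPM in PTU libraries. The groups overlapped over nearly their whole range in both arms, with Control replicate 8 highest and PTU replicate 2 lowest of all 14. The log2 fold changes were -0.08 ± 0.25 (adjusted p = 0.934 by edgeR) and -0.05 ± 0.24 (adjusted p = 0.951), and both became positive, 0.02 and 0.06, when no normalisation factors were applied.

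miR-92a-3p, which in mice restrains vessel growth and is rich in red cells, ranged from 3823 through 5236 to 7490 CPM in Control and from 5242 through 6479 to 9386 CPM in PTU libraries. All 6 PTU libraries were above the Control median, and PTU replicates 4 and 6 were above every Control library. Group means were 5513 CPM ± 1301 (SD, n = 8) and 7057 CPM ± 1793 (SD, n = 6), giving a log2 fold change of 0.36 ± 0.18 (adjusted p = 0.418 by edgeR). Without PTU replicate 6 it was 0.24, with an adjusted p of 0.599, and with upper-quartile factors it was 0.22.

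miR-363-3p shares the seed of miR-92a-3p and is encoded on chromosome X alone. It ranged from 25.0 through 39.5 to 48.3 CPM in Control and from 29.3 through 51.9 to 166 CPM in PTU libraries. PTU replicate 6, with 235 counts (145 to 188 CPM), was again far above the next library, PTU replicate 1 with 57.3 CPM (42.2 to 76.0), although 3 of 6 PTU libraries exceeded every Control library. The mean was 38.2 CPM ± 7.02 (SD, n = 8) in Control and 66.5 CPM ± 49.7 (SD, n = 6) in PTU libraries, or 46.7 CPM ± 11.4 (SD, n = 5) without PTU replicate 6. The log2 fold change was 0.82 ± 0.31, with an unadjusted p of 0.017 and an adjusted p of 0.258 by edgeR. Without PTU replicate 6 it was 0.28 ± 0.20, with an adjusted p of 0.58.

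In PTU replicate 6, singled out after its values were seen, the chromosome X arms stood higher against the other libraries than the other members did. Extreme values were common in this library, which was the highest for 66 and the lowest for 65 of the 357 tested miRNAs. Set against the median of the other 13 libraries, its level was 5.43 times as high for miR-20b-5p and 4.00 times for miR-363-3p, the chromosome X arms. It was 0.732 times for miR-18a-5p, 1.15 times for miR-19a-3p and 1.18 times for miR-20a-5p, the chromosome 15 arms. The arms encoded at both loci stood at 0.837 times for miR-17-5p, 1.29 times for miR-19b-3p and 1.60 times for miR-92a-3p. High values there were not particular to the chromosome X arms. Outside the clusters, miR-222-3p had 226 CPM in PTU replicate 6 and 64.4 CPM in the next library, PTU replicate 1. miR-221-3p had 2019 CPM there and 762 CPM in the next library, PTU replicate 2. The red cell miRNA miR-451-5p was also highest in this library, 3.88 times the median of the others, whereas the share of all red cell miRNAs, dominated by miR-16-5p, was 9.66% there within a PTU range of 5.60 to 15.3%. The platelet and endothelial set reached 3.29% of counts in PTU replicate 6 and 1.20 to 1.84% in the other libraries. Of this set miR-126a-5p, with 2321 CPM there, lay within its Control range of 1951 to 3366 CPM. Its other members were highest in this library, miR-21-5p with 10959 CPM and miR-126a-3p with 8923 CPM being the most abundant. miR-223-3p is on this list and on the leukocyte list. The part of these cell sources in the level of the chromosome X arms was not tested.

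The authors' deposited table of their own comparison gave log2 fold changes within 0.06 of these for every member, from -0.06 for miR-19a-3p to 0.87 for miR-363-3p. In the authors' deposited table the lowest false discovery rate among the 8 was 0.229, for miR-363-3p, and miR-18a-5p had 0.401.

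Ratios between members of the same library compare arms without any scaling between libraries. 7 ratios were formed on the log2 scale after adding 0.5 counts, and each was compared by a two-sided exact permutation test over the 3003 ways of choosing 6 of 14 libraries, with Benjamini-Hochberg adjustment over the 7. None passed, the lowest adjusted p being 0.428. The steadiest was miR-19a-3p to miR-19b-3p, from the same seed family, with -2.41 ± 0.12 (SD, n = 8) in Control and -2.46 ± 0.11 (SD, n = 6) in PTU libraries (exact permutation p = 0.485). The ratio of miR-363-3p to miR-92a-3p was -7.14 ± 0.34 in Control and -6.92 ± 0.69 in PTU libraries, a difference of 0.22 that became -0.0056 without PTU replicate 6, 0.15 without PTU replicate 3, and 0.35 and 0.36 without PTU replicates 2 and 4.

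miR-20b-5p to miR-20a-5p, the chromosome X arm against its chromosome 15 sister, was -5.17 ± 0.25 in Control and -5.10 ± 1.05 in PTU libraries (difference 0.07, exact permutation p = 0.912). PTU replicate 6, at -3.09, was the highest library, and without it the difference was -0.33 (exact permutation p = 0.0847). miR-17-5p to miR-92a-3p, a pair encoded at both loci, differed by -0.27 (exact permutation p = 0.231), and miR-19b-3p to miR-92a-3p by -0.44 (exact permutation p = 0.230). In both of these ratios 1 of 6 PTU libraries was above the Control median. The first difference was -0.13 without PTU replicate 6 (exact permutation p = 0.507) and -0.41 without PTU replicate 3 (exact permutation p = 0.0490, adjusted 0.150). The second was -0.66 without PTU replicate 3 (exact permutation p = 0.0645, adjusted 0.150). miR-20a-5p to miR-17-5p differed by 0.15 (exact permutation p = 0.245), which was 0.086, 0.094 and 0.24 when PTU replicates 6, 5 and 2 were left out in turn.

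**Figure D3:**
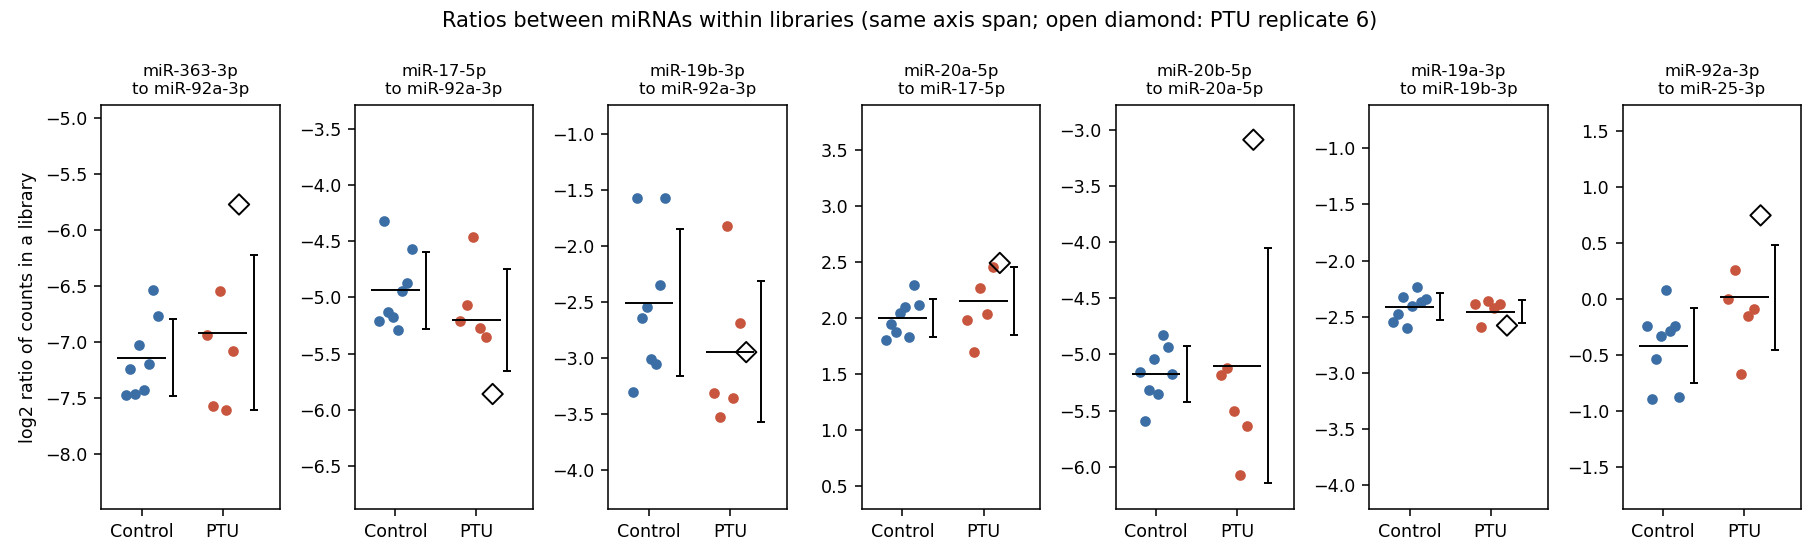
Log2 ratio of member to member, or of miR-92a-3p to miR-25-3p, in each Control and PTU library (0.5 counts added); lines are group means, bars 1 SD and open diamonds PTU replicate 6. The ratio of miR-19a-3p to miR-19b-3p lies in a narrow band in both groups, and PTU replicate 6 lies apart for miR-20b-5p to miR-20a-5p, at -3.09.

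Of 18 names listed for the other arms of these hairpins and for further arms of the clusters, 3 were in the count table, all from chromosome 15 hairpins. The passenger arm miR-17-1-3p (aCUGCAGUgaaggcacuugugg, bases 2 to 8 in capitals) was as abundant as its guide arm, with means of 182 CPM each over the 14 libraries, and it exceeded the guide arm in 7 of 14. It had 168 CPM ± 26.5 (SD, n = 8) in Control and 201 CPM ± 64.8 (SD, n = 6) in PTU libraries, with a log2 fold change of 0.27 ± 0.19 (adjusted p = 0.535 by edgeR) that was 0.11 without PTU replicate 3. miR-18a-3p was below miR-18a-5p in 13 of 14 libraries, with 60.3 CPM ± 27.4 (SD, n = 8) and 71.4 CPM ± 21.3 (SD, n = 6) and a log2 fold change of 0.26 ± 0.27 (adjusted p = 0.703 by edgeR), which ran from 0.12 without PTU replicate 1 to 0.45 without Control replicate 1. miR-92a-1-5p had 1 to 19 counts per library and was not tested. In PTU replicate 6, miR-17-1-3p stood at 0.773 times the median of the other libraries, close to the 0.837 times of its guide arm. miR-18a-3p did not follow its guide arm there, with 0.978 times against 0.732 times for miR-18a-5p.

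The third cluster of this family in mammals, miR-106b-25, and the separate gene of miR-92b give 4 guide arms with the same seeds: miR-93-5p and miR-106b-5p with AAAGUGC, and miR-25-3p and miR-92b-3p with AUUGCAC. With the opposite arms of these hairpins 8 names were listed, of which 7 were in the count table and all 7 were tested. 6 had a positive and 1 a negative log2 fold change, with a median of 0.19, and 0 passed the adjusted threshold. 1 was at an unadjusted p under 0.05, the opposite arm miR-25-5p, with 33.3 CPM ± 7.31 (SD, n = 8) in Control and 46.2 CPM ± 11.6 (SD, n = 6) in PTU libraries (adjusted p = 0.284 by edgeR). Among the guide arms that share a seed, miR-93-5p (4463 CPM) was above miR-20a-5p in 14 of 14 libraries, and miR-25-3p (7182 CPM) was above miR-92a-3p in 11 of 14. miR-106b-5p (36.02 CPM) was below miR-17-5p, and miR-92b-3p (52.7 CPM) below miR-92a-3p, in 14 of 14 libraries. The members held 17.4% ± 2.23 (SD, n = 8) of the counts with the seed AAAGUGC in Control and 19.2% ± 3.80 (SD, n = 6) in PTU libraries. They held 42.7% ± 5.51 (SD, n = 8) and 49.9% ± 7.81 (SD, n = 6) of those with AUUGCAC.

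miR-92a-3p and miR-25-3p share a seed and had levels of the same order, with log2 fold changes of opposite sign. miR-25-3p had 7288 CPM ± 1435 (SD, n = 8) in Control and 7041 CPM ± 2084 (SD, n = 6) in PTU libraries, a log2 fold change of -0.05, which became 0.04 without normalisation factors. The log2 ratio of miR-92a-3p to miR-25-3p was -0.41 ± 0.34 (SD, n = 8) in Control and 0.02 ± 0.47 (SD, n = 6) in PTU libraries. The difference of 0.43 had a two-sided exact permutation p of 0.0673 and an adjusted p of 0.428, and 5 of 6 PTU libraries were above the Control median. The difference was 0.28 without PTU replicate 6 (exact permutation p = 0.168, adjusted 0.587) and 0.57 without PTU replicate 3 (exact permutation p = 0.0117, adjusted 0.0816).

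The members did not vary as a block across the 14 libraries. Pearson's r between log2 CPM values over their 28 pairs ran from -0.42 to 0.97 with a median of 0.29, and 22 pairs were above 0; the median over all pairs of tested miRNAs was -0.0090. miR-19a-3p and miR-19b-3p were the closest pair, with r = 0.97 and Spearman's rho = 0.95 (permutation p = 1e-05, the smallest that 100000 resamples can give; adjusted over 28 pairs 0.00028). Without the 2 libraries farthest from the median r was 0.96. Reads of these arms, which differ at 1 position, may have been shared between them in counting, and the part of that in this r was not tested. miR-20b-5p and miR-363-3p, both from the run on chromosome X, followed with r = 0.90 (permutation p = 0.00155, adjusted 0.0217) and rho = 0.60 (permutation p = 0.0257, adjusted 0.152). That r was 0.56 without PTU replicate 6. Of the 28 pairs, 5 had an adjusted permutation p under 0.05 for r. The share of all pairs of tested miRNAs with such a p was not computed, so this count cannot be called a trait of the clusters. The rest of the 5 pairs were miR-20a-5p with miR-19b-3p (r = 0.71), miR-19a-3p with miR-20a-5p (r = 0.70) and miR-17-5p with miR-18a-5p (r = 0.68). Each had an adjusted permutation p of 0.0376. In the same order r was 0.69, 0.70 and 0.65 without PTU replicate 6, and 0.47, 0.65 and 0.26 without the 2 farthest libraries. For rho the adjusted permutation p was 0.152, 0.152 and 0.163.

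Each member was set beside miR-451-5p, an abundant red cell miRNA, which does not stand for the whole red cell set. In PTU replicate 6 miR-451-5p was 3.88 times the median of the other libraries and miR-144-3p 2.47 times, but miR-16-5p was 0.677 times. The opposite arm miR-451-3p had 8.46 CPM there, beside 1.48 to 13.8 CPM in Control libraries. miR-451-5p ranged from 1457 to 5110 CPM in Control and from 2273 to 17616 CPM in PTU libraries, and its own log2 fold change of 0.93 ± 0.34 became 0.48 without PTU replicate 6. miR-20a-5p followed it most closely over the 14 libraries, with r = 0.81 (permutation p = 0.00074, adjusted over 8 relations 0.00592) and rho = 0.87 (permutation p = 0.0001, adjusted 0.0008). Without the 2 libraries farthest from the median of miR-451-5p, PTU replicate 6 and Control replicate 6, its r was 0.93. Within groups r was 0.81 over the 8 Control and 0.75 over the 6 PTU libraries. miR-19b-3p had r = 0.68 (permutation p = 0.0076, adjusted 0.0203) and rho = 0.71 (permutation p = 0.00579, adjusted 0.0166), with r = 0.68 without the farthest 2, 0.75 in Control and 0.85 in PTU libraries. miR-19a-3p had r = 0.58 (permutation p = 0.0331, adjusted 0.0661) and rho = 0.71 (permutation p = 0.00622, adjusted 0.0166), and its r without the farthest 2 was 0.70.

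For the chromosome X arms the relation was weaker without PTU replicate 6. miR-363-3p had r = 0.77 (permutation p = 0.00313, adjusted 0.0125) and rho = 0.54 (permutation p = 0.0482, adjusted 0.0965). Without PTU replicate 6 its r was 0.54 (adjusted permutation p = 0.0753) and without the farthest 2 it was 0.51. Within groups r was 0.19 over the 8 Control and 0.87 over the 6 PTU libraries, the latter being 0.74 without PTU replicate 6. miR-20b-5p had r = 0.63 (permutation p = 0.0417, adjusted 0.0668) and rho = 0.16, and without PTU replicate 6 its r was 0.07. miR-92a-3p had r = 0.48 (permutation p = 0.0775, adjusted 0.103), which was 0.19 without the farthest 2 and 0.09 within Control libraries. miR-17-5p and miR-18a-5p had r = 0.28 and r = 0.24, and without PTU replicate 6 these were 0.61 (adjusted permutation p = 0.0414) and 0.68 (adjusted permutation p = 0.0294). In the same order r was 0.54 and 0.46 over the 8 Control and 0.09 and -0.11 over the 6 PTU libraries.

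**Figure D4:**
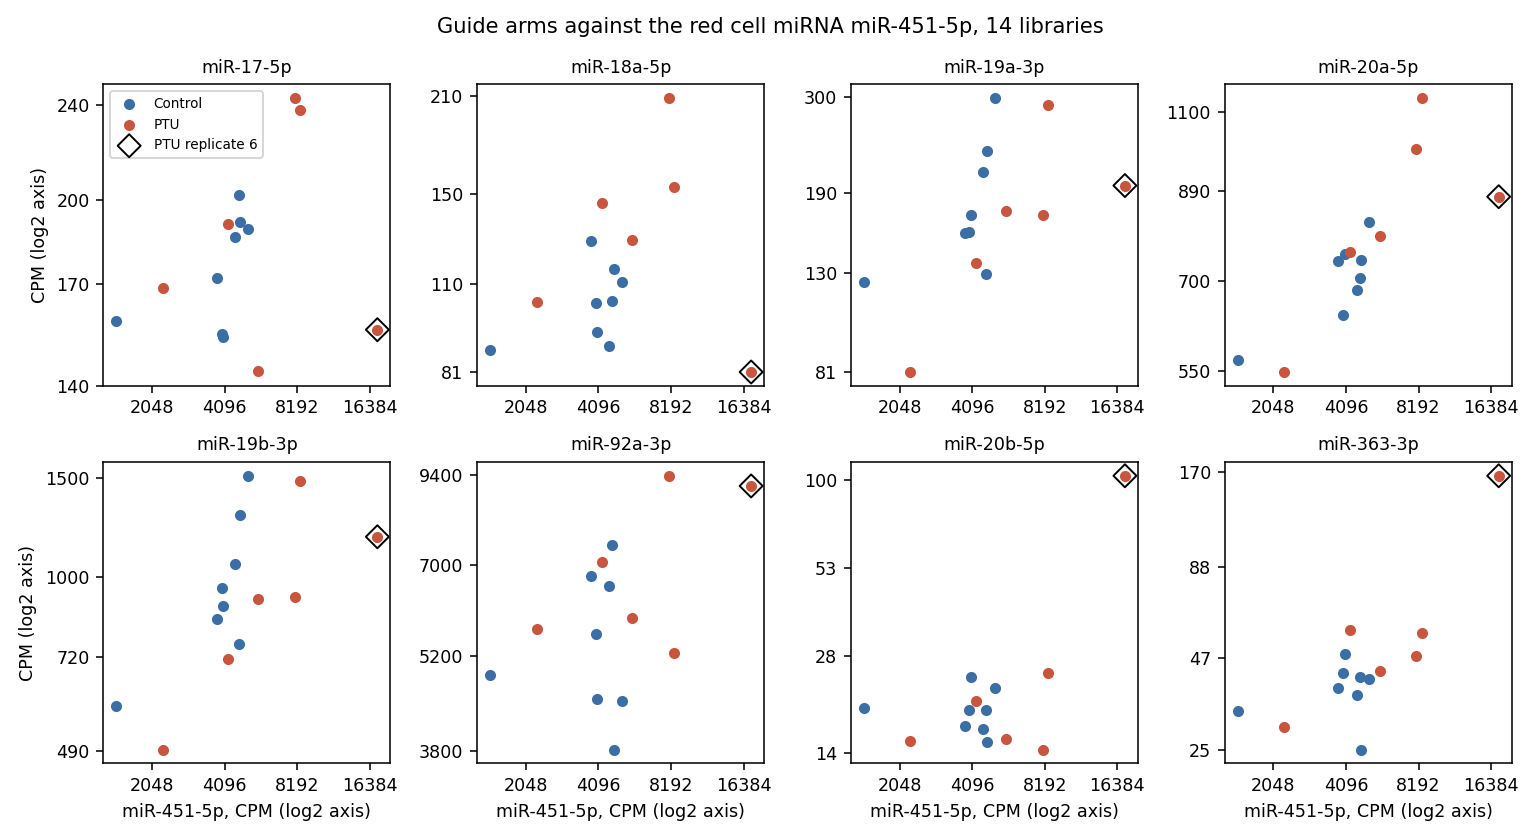
Level of each guide arm against that of miR-451-5p (CPM, both axes log2) in the 14 libraries; the open diamond marks PTU replicate 6. miR-20a-5p rises along miR-451-5p in both groups (r = 0.81), while miR-20b-5p is flat apart from that 1 library (r = 0.07 without it).

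None of the 357 tested miRNAs passed the adjusted threshold, those of the cell source lists included. Of the red cell list, 5 of 7 names were in the table; all 5 had positive log2 fold changes (median 0.93, 0.48 without PTU replicate 6), against 57.7% of all tested miRNAs. At an unadjusted p under 0.05, 3 of the 5 were higher in PTU against 7.84% of all tested, which became 2 of 5 against 6.13% without PTU replicate 6 and 1 of 5 without PTU replicates 3 and 6. The 3 were miR-451-5p, miR-144-3p and miR-144-5p, which are transcribed together, so they are not separate markers. miR-16-5p, the only one of the 5 from elsewhere, had a log2 fold change of 0.08, and -0.04 without PTU replicate 3. As a share of counts the list ran from 7.86 to 11.1% in Control and from 5.60 to 15.3% in PTU libraries. The leukocyte list (6 of 6 names) ran from 0.881 to 1.23% and from 0.719 to 1.93%, and its median log2 fold change was -0.06. The platelet and endothelial list (6 of 6, with miR-223-3p on both lists) had a median of 0.12, which was -0.13 without PTU replicate 6. The striated muscle list (5 of 7) had a median of -0.10. Their part in the members' group differences was not tested.

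Outside the clusters, the tested miRNAs whose log2 CPM was most like that of each member over the 14 libraries were named by Pearson's r, as a description. miR-17-5p was closest to its seed relative miR-93-5p (r = 0.80) and to miR-25-3p (r = 0.77). miR-18a-5p was closest to miR-301a-3p (r = 0.77) and miR-425-3p (r = 0.74). miR-20a-5p was closest to miR-185-5p (r = 0.85) and to miR-144-3p (r = 0.82), a red cell miRNA transcribed together with miR-451. miR-19a-3p was closest to miR-362-3p (r = 0.85) and miR-142-5p (r = 0.83), and miR-19b-3p to miR-185-5p (r = 0.80) and miR-362-3p (r = 0.79). miR-92a-3p was closest to miR-130b-5p (r = 0.80) and to miR-93-3p (r = 0.77). For the chromosome X arms the likeness came with PTU replicate 6: miR-20b-5p was closest to miR-27a-3p (r = 0.92, and 0.27 without that library) and miR-322-5p (r = 0.91 and 0.18). miR-363-3p was closest to miR-484 (r = 0.86 and 0.31) and miR-425-5p (r = 0.85 and 0.48).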

How the data were processed

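Cell-free serum RNA was made into small RNA libraries with the QIAseq miRNA kit and 22 PCR cycles, per the labels' protocols. The values used were the authors' deposited raw counts per mature miRNA, in 14 columns. The submitters' processing notes name edgeR; no aligner, build or miRNA reference is given in the sources used here, nor whether molecular tags or reads were counted. The authors' deposited table also holds their log2 fold changes, p-values with false discovery rates, and group means of the counts, an unnormalised signal that was not used. Columns were assigned to pups by the sample name in the titles. All libraries of a group differed from each other beyond counting error (chi-square over degrees of freedom at least 23.1).

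edgeR 4.0.16 (R 4.3.3) was run on all counts, with filterByExpr (357 of 375 miRNAs kept, 18 left out), TMM factors, which scale libraries to a common bulk of miRNAs, and the quasi-likelihood test, PTU against Control, with a false discovery rate of 0.05. Levels are CPM with TMM factors, and log2 CPM for correlations used a prior count of 2. Alternatives used DESeq2 1.42.0 and limma 3.58.1. Ratios and correlations used scipy 1.17.1 with exact or 100000-resample permutation tests. The fit was tested on simulated data. Depth was 452961 to 2119979 counts per library, and Poisson intervals cover counting error only.

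All 8 members were described, together with the arms of both clusters and of related genes that are in the table, 4 lists of cell source miRNAs, and the 2 miRNAs most like each member by Pearson's r. The members and lists were chosen with earlier results of these data known. Sequences and gene order are from RefSeq (GRCr8), in which 343 of the 375 names were matched. Each library is 1 pup from 1 litter.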

Additional observations from a re-analysis of the deposited data

Results flagged for a closer look

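In 50 sets of values tested for a single far sample, 3 held one, and chance gives about 1 in 20. miR-20b-5p in PTU replicate 6 had a log2 CPM of 6.71, above the other 5 PTU libraries by 0.730 of the group's range (the critical value for 6 samples is 0.625). In the same library the log2 ratio of miR-20b-5p to miR-20a-5p was -3.09, above the others by 0.680 of the range. The passenger arm miR-17-1-3p had its lowest value in Control replicate 6, a log2 CPM of 6.82, below the other 7 Control libraries by 0.662 of the range (critical value 0.526). The cause was not tested for any of the 3.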

How the results depend on the processing

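No member passed the adjusted threshold under any alternative run, except that DESeq2 gave no p for miR-20b-5p and so made no call on it. Over all miRNAs the calls were 1 by DESeq2, 3 by the edgeR likelihood ratio test and 0 to 1 with 1 library left out (1 without PTU replicate 5). miRNAs at an unadjusted p under 0.05 were 13 higher and 38 lower when libraries were scaled by upper quartiles, a scaling that moved the median log2 fold change of all miRNAs by -0.11, and 44 higher and 9 lower with no factors, which moved it by 0.09. Members at that p numbered 1 with upper-quartile factors, 4 with no factors, 0 by limma-voom, 1 by the likelihood ratio test, 1 without PTU replicates 3 and 6 together (chosen after seeing the data), and 1 to 5 with 1 library left out (5 without PTU replicate 2, 4 without PTU replicate 5, 1 without PTU replicate 1 or 6, and 1 without Control replicate 2, 3, 6, 7 or 8).

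With no factors the log2 fold change was 0.024 for miR-19a-3p, 0.057 for miR-19b-3p and 0.045 for miR-25-3p, and miR-106b-3p was -0.084 with upper-quartile factors. With 1 library left out, miR-19a-3p ran from -0.27 to 0.061 (above 0 without PTU replicate 2 or Control replicate 8), miR-19b-3p from -0.21 to 0.078 (above 0 without PTU replicate 1 or 2, or Control replicate 2 or 8), miR-20b-5p from -0.085 to 0.99, miR-363-3p from 0.28 to 0.96, miR-106b-3p from -0.078 to 0.11 and miR-25-3p from -0.17 to 0.040. The ratio differences ran from -0.0056 to 0.36 for miR-363-3p to miR-92a-3p and from -0.33 to 0.27 for miR-20b-5p to miR-20a-5p, lowest without PTU replicate 6. Without PTU replicates 3 and 6, miR-19a-3p was -0.42, miR-19b-3p -0.40 and miR-20b-5p -0.26, and these ratio differences were -0.16 and -0.33.

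Replicate numbers are shared by the groups, but same-numbered libraries did not deviate together (r from -0.25 to 0.29, 2 of 12 closest to their own number). The number was then used as a replicate block, in a fit of 12 libraries that left out Control replicates 7 and 8. In it 0 miRNAs passed, 13 were at an unadjusted p under 0.05 and higher, and 0 members were. The log2 fold changes were 0.0079 for miR-19a-3p, 0.022 for miR-19b-3p and -0.040 for miR-92b-3p. Leaving out Control replicate 8 alone, with no block, gave 0.044 and 0.056 for the first 2, so their sign cannot be credited to the block.

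Pearson's r with miR-451-5p, with no factors, was 0.57 for miR-17-5p, 0.67 for miR-19a-3p, 0.61 for miR-92a-3p and 0.69 for miR-20b-5p. Without PTU replicates 3 and 6 it was 0.65 for miR-19b-3p, -0.19 for miR-20b-5p and 0.44 for miR-363-3p. With 1 library left out it ran from 0.17 to 0.61 for miR-17-5p, 0.081 to 0.68 for miR-18a-5p, 0.48 to 0.66 for miR-19a-3p, 0.60 to 0.74 for miR-19b-3p (past the threshold except without Control replicate 6 or PTU replicate 2 or 3), 0.072 to 0.74 for miR-20b-5p and 0.54 to 0.83 for miR-363-3p. The cause was not tested. Depth limits miR-20b-5p most, with 8 counts in its lowest library.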
